A study of Rattus norvegicus with 12 samples.

Results

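The 10 genes described here encode proteins that fibroblasts secrete into the extracellular matrix: the fibrillar collagen chains Col1a1, Col1a2, Col3a1 and Col5a1, the collagen VI chains Col6a1, Col6a2 and Col6a3, the matrix glycoproteins Sparc and Fn1, and the proteoglycan Dcn. They were taken by gene name from a table of read counts for 30560 genes. Each name matched 1 row, and all 10 passed the filter on low counts that 26483 genes (86.7%) passed. Their messenger RNAs were followed through 4 preparations of mitochondria from rat skeletal muscle, with 3 libraries for each. The mitoplast_RNase group held mitoplasts (mitochondria without their outer membrane) derived from immunoprecipitated mitochondria and treated with RNase A. The IP_RNase_ProK group held immunoprecipitated mitochondria treated with RNase A and proteinase K, and the IP_RNase group held immunoprecipitated mitochondria treated with RNase A alone. The crude_RNase group held mitochondria obtained by differential centrifugation, also treated with RNase A. Every library came from the pooled muscle homogenate of 1 wild-type male Wistar Kyoto rat aged 14 weeks. Errors and p-values therefore cover differences between aliquots of 1 animal and say nothing of other animals.

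Fibroblasts of muscle lie between the fibres and build their connective tissue sheaths. Collagen chains are translated into the endoplasmic reticulum, where prolyl and lysyl hydroxylases modify them, chaperones fold them into triple helices and the helices leave by secretion. Collagens I and III form the bulk of the fibrils of the muscle sheaths, collagen V seeds fibrils and limits their width, and collagen VI forms beaded microfilaments around each muscle fibre. Decorin coats fibrils, SPARC binds collagen as it leaves the cell, and fibronectin links the matrix to integrins. None of these proteins is encoded by the mitochondrial genome, and all are made on ribosomes outside mitochondria.

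The 250 bases before the RefSeq gene start on assembly GRCr8 are shown for Col1a2 and Sparc, which were lower in every bead-derived preparation than in crude_RNase, and for Col6a3, which had the smallest change after immunoprecipitation alone. A promoter entry was matched for 5 of the 10 genes, namely Col1a2, Col5a1, Col6a1, Col6a3 and Sparc. Capitals mark the TATA box letters TATAAA and the CCAAT box letters CCAAT, searched on both strands, where a capital run ATTGG is the CCAAT box on the opposite strand. The sequences run 5′ to 3′ on the gene's own strand.
Col1a2, chr4:33518307-33518556, plus strand: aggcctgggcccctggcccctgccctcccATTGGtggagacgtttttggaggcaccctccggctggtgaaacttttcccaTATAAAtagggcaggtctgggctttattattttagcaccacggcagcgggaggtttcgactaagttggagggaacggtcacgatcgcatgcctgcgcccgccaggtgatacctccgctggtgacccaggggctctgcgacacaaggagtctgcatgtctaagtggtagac
Sparc, chr10:40038817-40039066, minus strand: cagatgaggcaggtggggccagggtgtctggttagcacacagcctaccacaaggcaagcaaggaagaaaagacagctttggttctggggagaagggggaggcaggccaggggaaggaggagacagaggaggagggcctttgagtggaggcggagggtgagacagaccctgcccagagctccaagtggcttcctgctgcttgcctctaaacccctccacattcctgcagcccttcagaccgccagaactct
Col6a3, chr9:98886959-98887208, minus strand: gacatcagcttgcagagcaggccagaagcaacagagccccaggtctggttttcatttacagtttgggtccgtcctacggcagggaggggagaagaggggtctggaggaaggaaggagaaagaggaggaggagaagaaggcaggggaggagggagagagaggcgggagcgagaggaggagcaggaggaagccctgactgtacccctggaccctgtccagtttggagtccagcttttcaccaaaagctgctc
TATAAA was found in 1 of the 5 matched promoters, that of Col1a2, where it began 170 bases before the start, and in 12.9% of 33469 promoters of the same length. CCAAT was also found in 1 of the 5, again Col1a2, on the opposite strand 221 bases before the start, against 34% of all promoters. The GC box GGGCGG, occurred in the promoter of Col5a1 and in 30.5% of all promoters. The runs found in Col1a2 do not overlap, and a match is a description of letters only.

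Library totals were 3754889 to 4210404 counts in mitoplast_RNase, 3705192 to 4563254 in IP_RNase_ProK, 3325430 to 3911630 in IP_RNase and 6583452 to 7123045 in crude_RNase. Levels are given as CPM, counts scaled to a library of 1e+06 counts, with library sizes adjusted by the trimmed mean of M-values (TMM), a scaling that sets the bulk of genes level between libraries. Mitochondrial messenger RNAs took 1.507% to 1.886% of counts in mitoplast_RNase, 1.489% to 2.07% in IP_RNase_ProK, 2.559% to 5.585% in IP_RNase and 22.93% to 28.82% in crude_RNase. RNA input to the library kit was 40 ng for the bead-derived preparations and 6.3 ng for crude_RNase, so isolation method and input cannot be told apart. Genes that muscle does not normally transcribe also had counts. The median of 1115 olfactory receptor genes was 38 to 46 counts in mitoplast_RNase, 40 to 49 in IP_RNase_ProK, 37 to 44 in IP_RNase and 30 to 34 in crude_RNase. The matrix genes had 61 to 981 counts per library in the bead-derived preparations, with Dcn lowest at 61 to 112. The median nuclear gene had 79 to 89 counts in mitoplast_RNase, 79 to 97 in IP_RNase_ProK and 70 to 76 in IP_RNase, so Dcn lay around that level. The part of a level like that of the olfactory receptor genes in the matrix gene counts was not tested.

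The first comparison set bead capture against centrifugation. After immunoprecipitation, 9 of the 10 matrix genes were lower than in crude mitochondria and none was higher (edgeR quasi-likelihood test, adjusted p under 0.05), where 5.09% of all tested genes were lower and 1.26% higher. The median log2 fold change of the 10 genes was -1.34, against 0.01 for all tested genes. The 10 genes spanned log2 fold changes of -3.26 to -0.15. Col3a1, Sparc, Col1a1, Dcn and Col1a2 were 4.02-fold to 9.55-fold lower, and the other 5 had fitted levels 1.11-fold to 1.6-fold lower, with Col6a3 the member that did not pass the test.

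Col3a1 (ENSRNOG00000003357), whose homotrimer forms the fine fibrils of the muscle sheaths, had the largest change of the 10. It had 69.7, 56 and 66.9 CPM in IP_RNase libraries, against 576, 640 and 628 CPM in crude_RNase libraries. Every IP_RNase library lay far below every crude_RNase library. The log2 fold change was -3.26 ± 0.083 (SE), 9.55-fold lower, with an edgeR adjusted p of 6.19e-37.

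Col1a1 and Col1a2, which encode the chains that join into the collagen I heterotrimer, were lower by nearly the same factor. Col1a1 (ENSRNOG00000003897) had 110, 112 and 120 CPM in IP_RNase libraries, against 492, 508 and 473 CPM in crude_RNase libraries. Its log2 fold change was -2.10 ± 0.074 (SE; edgeR adjusted p = 1.72e-30). Col1a2 (ENSRNOG00000011292) had 77.6, 79.6 and 85.2 CPM in IP_RNase libraries, against 304, 355 and 317 CPM in crude_RNase libraries. The groups did not overlap for either chain, and the log2 fold change of Col1a2 was -2.01 ± 0.0791 (SE; edgeR adjusted p = 3.15e-28). In the RefSeq table the span of Col1a1 overlaps that of Sgca. Whether the counting used strand is not stated, so reads of overlapping genes cannot be told apart.

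Col5a1 (ENSRNOG00000008749), a chain of the minor collagen that seeds type I fibrils, changed far less. It had 170, 190 and 166 CPM in IP_RNase libraries, against 239, 199 and 196 CPM in crude_RNase libraries. The closest libraries of the 2 groups were 190 and 196 CPM, and 1 crude_RNase library stood above the rest. The log2 fold change was -0.27 ± 0.0793 (SE; edgeR adjusted p = 0.0223). The call was lost without IP_RNase library 1 (adjusted p = 0.126), without IP_RNase library 3 (adjusted p = 0.145) and without crude_RNase library 1, where the log2 fold change was -0.17 (edgeR adjusted p = 0.202).

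The chains of collagen VI, which assemble as a trimer before secretion, moved by unequal amounts. Col6a1 (ENSRNOG00000001249) had 87.4, 88.1 and 92.8 CPM in IP_RNase libraries, against 142, 136 and 139 CPM in crude_RNase libraries. Col6a2 (ENSRNOG00000001254) had 88.6, 94.1 and 97.3 CPM in IP_RNase libraries, against 152, 153 and 144 CPM in crude_RNase libraries. Both were separate between groups, with log2 fold changes of -0.64 ± 0.077 for Col6a1 and -0.68 ± 0.0785 for Col6a2 (SE; edgeR adjusted p = 3.83e-09 and 9.55e-10). Col6a3 (ENSRNOG00000019648), the longest of these chains, had 177, 166 and 166 CPM in IP_RNase libraries, against 192, 182 and 193 CPM in crude_RNase libraries. Its groups were also separate, but the gap was small and the gene did not pass the test (log2 fold change -0.15 ± 0.0738, SE; edgeR adjusted p = 0.25). In the RefSeq table the spans of Col6a3 and Dcn each overlap that of 1 long noncoding RNA.

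Among the non-collagen members, Sparc changed by more than the collagen I chains, Dcn by a similar amount and Fn1 by far less. Sparc (ENSRNOG00000012840), the collagen-binding glycoprotein also called osteonectin, had 37.1, 43.5 and 40.1 CPM in IP_RNase libraries, against 242, 249 and 263 CPM in crude_RNase libraries. The groups were far apart, with a log2 fold change of -2.64 ± 0.0873 (SE), 6.24-fold lower (edgeR adjusted p = 9.19e-32). Dcn (ENSRNOG00000004554), the small leucine-rich proteoglycan decorin, had 21.9, 18.7 and 16.5 CPM in IP_RNase libraries, against 68, 83.5 and 91.1 CPM in crude_RNase libraries. It had the widest relative spread of the 10 and the groups still did not overlap (log2 fold change -2.08 ± 0.122, SE; edgeR adjusted p = 1.34e-20).

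Fn1 (ENSRNOG00000014288), which encodes fibronectin, had 135, 125 and 139 CPM in IP_RNase libraries, against 167, 163 and 163 CPM in crude_RNase libraries. The groups were separate by a modest gap (log2 fold change -0.30 ± 0.0734, SE; edgeR adjusted p = 0.00373). Without IP_RNase library 2 the call was lost (adjusted p = 0.0536).

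**Figure D1:**
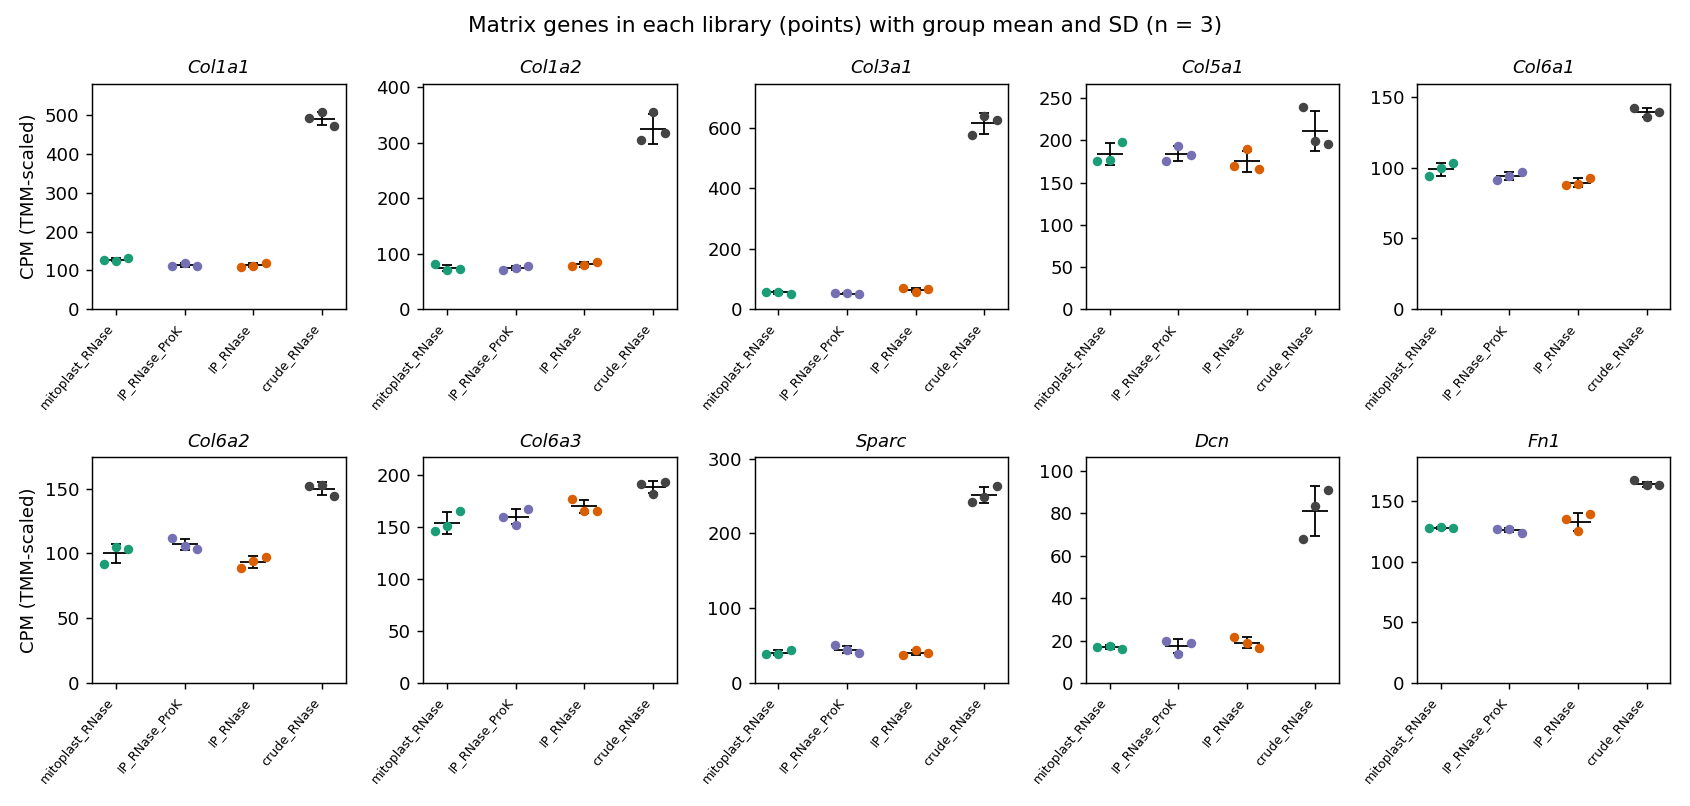
TMM-scaled CPM (vertical axes, each starting at 0) of the 10 matrix genes in the 12 libraries, with points for libraries and bars for the group mean and SD (n = 3). Crude_RNase libraries stand far above the 9 others for Col1a1, Col1a2, Col3a1, Sparc and Dcn, by a small gap for Col6a1, Col6a2, Col6a3 and Fn1, and overlap them for Col5a1.

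The direction of the smaller changes depended on the scaling. With counts divided by library totals alone, the median log2 fold change of all tested genes was 1.03, and Col5a1, Col6a1, Col6a2, Col6a3 and Fn1 were called higher in IP_RNase, at 0.34 to 0.87. All 10 genes lay below that median. Col1a1, Col1a2, Col3a1, Sparc and Dcn were called lower in IP_RNase under each of the 14 alternatives tried.

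**Figure D2:**
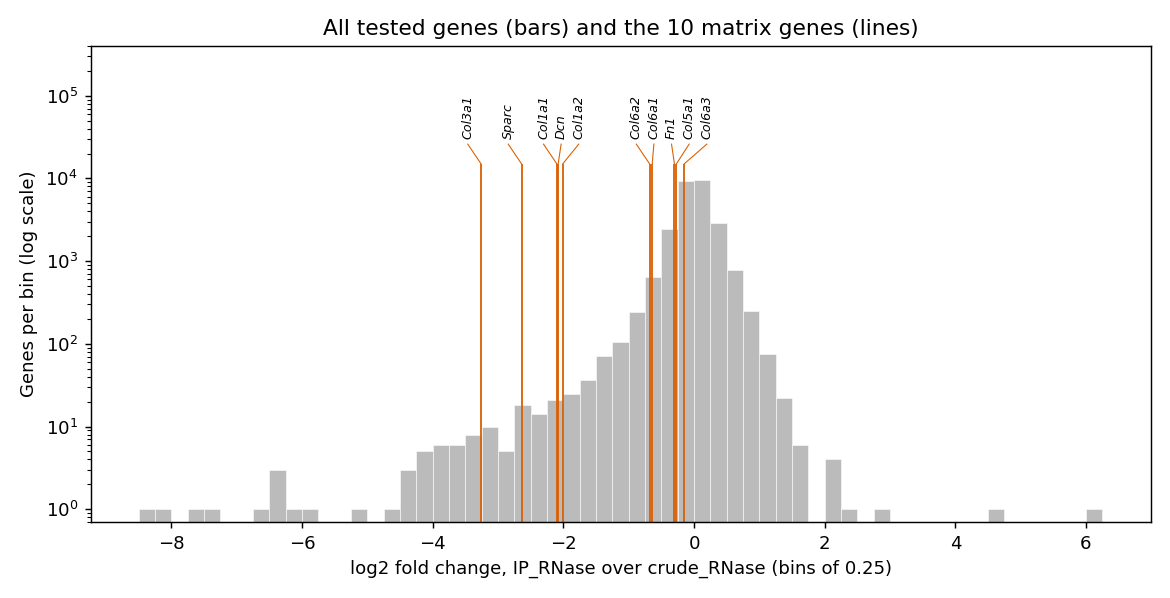
Histogram of the log2 fold change of IP_RNase over crude_RNase for all 26483 tested genes (bars, log-scaled vertical axis, genes per bin), with a line at each matrix gene. Col3a1 lies at -3.26 and Col6a3 at -0.15, while the median of all tested genes is 0.01.

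Immunoprecipitated mitochondria that had also received proteinase K were compared with the same crude libraries. Of the 10 matrix genes, 9 were lower and none higher, where 5.04% of all tested genes were lower and 1.45% higher (edgeR adjusted p under 0.05). Col3a1 had 52.6, 53 and 49.6 CPM in IP_RNase_ProK libraries, all far below crude_RNase (576, 640 and 628 CPM), with a log2 fold change of -3.57 ± 0.084 (SE). This was 11.9-fold lower (edgeR adjusted p = 1.88e-38). Sparc had 50.2, 43.5 and 40.2 CPM in IP_RNase_ProK libraries, against 242, 249 and 263 CPM in crude_RNase, and was 5.6-fold lower (edgeR adjusted p = 2.61e-31).

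The log2 fold changes of Col1a1, Col1a2 and Dcn were -2.10 ± 0.0732, -2.13 ± 0.0786 and -2.19 ± 0.119 (SE). Those of Col6a1, Col6a2 and Fn1 were -0.57 ± 0.0754, -0.49 ± 0.0763 and -0.38 ± 0.0728 (SE), also past the test. Col6a3 had 160, 152 and 167 CPM in IP_RNase_ProK libraries, against 192, 182 and 193 CPM in crude_RNase. Here it passed the test, at -0.24 ± 0.0734 (SE; edgeR adjusted p = 0.0334), but not without IP_RNase_ProK library 1, 2 or 3 (adjusted p = 0.122, 0.205 and 0.0533) or crude_RNase library 3 (adjusted p = 0.0983). Col5a1 had 175, 193 and 183 CPM in IP_RNase_ProK libraries, against 239, 199 and 196 CPM in crude_RNase. Its log2 fold change of -0.21 ± 0.0784 (SE) did not pass (edgeR adjusted p = 0.118), and it passed without crude_RNase library 2 (adjusted p = 0.0367). Without crude_RNase library 1 the log2 fold change was -0.10 (edgeR adjusted p = 0.462).

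Mitoplasts were set against the crude libraries in the same way. Again 9 matrix genes were lower and none was higher, where 4.54% of all tested genes were lower and 0.997% higher (edgeR adjusted p under 0.05). Col3a1 had 58.5, 58.1 and 50.6 CPM in mitoplast_RNase libraries, against 576, 640 and 628 CPM in crude_RNase, 11-fold lower (log2 fold change -3.46 ± 0.0833, SE; edgeR adjusted p = 5.38e-38). Sparc had 38.7, 38.9 and 44 CPM in mitoplast_RNase libraries, against 242, 249 and 263 CPM in crude_RNase, 6.2-fold lower (edgeR adjusted p = 4.41e-32). The mitoplast values of both genes were separate from crude_RNase by several-fold.

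The log2 fold changes of Col1a1, Col1a2 and Dcn in mitoplasts were -1.94 ± 0.0725, -2.12 ± 0.0787 and -2.25 ± 0.121 (SE). Those of Col6a1, Col6a2 and Fn1 were -0.50 ± 0.0752, -0.58 ± 0.0769 and -0.36 ± 0.0728 (SE), and each of these 6 genes passed the test. Col6a3 had 146, 151 and 166 CPM in mitoplast_RNase libraries, against 192, 182 and 193 CPM in crude_RNase. It passed at -0.29 ± 0.0736 (SE; edgeR adjusted p = 0.00646), but not without mitoplast_RNase library 1 or 2 (adjusted p = 0.0906 and 0.055). Col5a1 had 176, 177 and 198 CPM in mitoplast_RNase libraries, against 239, 199 and 196 CPM in crude_RNase. It was the member whose groups overlapped here, and it did not pass (log2 fold change -0.21 ± 0.0784, SE; edgeR adjusted p = 0.128), although it did without crude_RNase library 2 (adjusted p = 0.0405). Without crude_RNase library 1 it was at -0.11 (edgeR adjusted p = 0.474). With counts divided by library totals alone, the median of all tested genes was 1.09 for IP_RNase_ProK and 1.08 for mitoplast_RNase over crude_RNase, and Col5a1, Col6a1, Col6a2, Col6a3 and Fn1 were called higher in both. The 3 comparisons with crude_RNase share its 3 libraries, so their likeness is not independent evidence. All preparations started from 1 homogenate, and in such bulk samples fewer fragments of matrix-producing cells carried into a preparation and less RNA per fragment cannot be told apart.

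**Figure D3:**
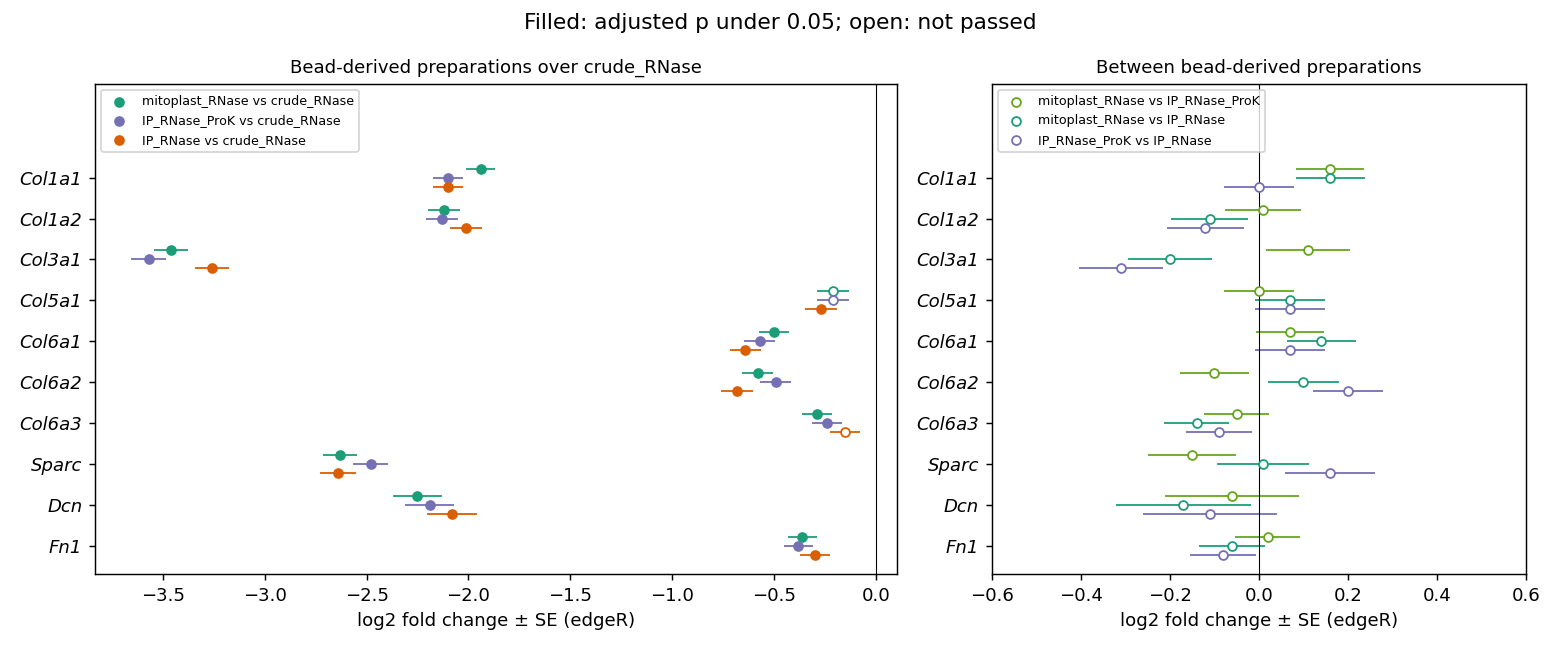
Log2 fold changes with SE (horizontal axes) of the 10 matrix genes (rows), for the bead-derived preparations over crude_RNase on the left and between bead-derived preparations on the right. Filled points passed an edgeR adjusted p of 0.05; 9 of 10 points are filled for each comparison with crude_RNase, and none on the right, where every value lies between -0.31 and 0.20.

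The bead-derived preparations were then compared with each other, which asked whether protease treatment or removal of the outer membrane went with a further change. No matrix gene passed the test between IP_RNase_ProK and IP_RNase with edgeR, where 0.14% of all genes did, or with DESeq2, which gave Dcn no adjusted p. At an unadjusted p under 0.05 there were 2, Col3a1 and Col6a2. The share of all tested genes at that unadjusted threshold was not computed, here or for the other pairs of bead-derived preparations. Col3a1 had 52.6, 53 and 49.6 CPM in IP_RNase_ProK libraries, against 69.7, 56 and 66.9 CPM in IP_RNase libraries. The ranges did not overlap, where 8.27% of all tested genes were likewise separate and lower. The log2 fold change of Col3a1 was -0.31 ± 0.0946 (SE; edgeR adjusted p = 0.237). Col6a2 had 112, 106 and 103 CPM in IP_RNase_ProK libraries, against 88.6, 94.1 and 97.3 CPM in IP_RNase libraries (log2 fold change 0.20 ± 0.0792, SE; edgeR adjusted p = 0.447).

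Between mitoplast_RNase and IP_RNase none of the 10 passed with edgeR, where 0.155% of all genes did, or with DESeq2, which again gave Dcn no adjusted p. Those at an unadjusted p under 0.05 were Col1a1 (log2 fold change 0.16 ± 0.0772, SE; edgeR adjusted p = 0.529) and Col3a1 (-0.20 ± 0.0939, SE; edgeR adjusted p = 0.524). Between mitoplast_RNase and IP_RNase_ProK no gene of the whole table passed (0%), with edgeR or with DESeq2, and 1 matrix gene had an unadjusted p under 0.05. This was Col1a1, with 126, 125 and 133 CPM in mitoplast_RNase libraries, against 112, 120 and 111 CPM in IP_RNase_ProK libraries (log2 fold change 0.16 ± 0.0762, SE; edgeR adjusted p = 1). The SE of these fold changes was 0.073 to 0.152, largest for Dcn. With 3 libraries per group, differences well above 1 SE did not pass either. An example is Col3a1 in IP_RNase_ProK over IP_RNase, at -0.31 ± 0.0946 (SE; edgeR adjusted p = 0.237). The smallest difference that the test could call was not computed.

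The spread over the 9 bead-derived libraries was narrow. The highest library exceeded the lowest by 1.12-fold for Fn1, 1.18-fold for Col6a1, 1.41-fold for Col3a1 and 1.62-fold for Dcn. For 9 of the 10 genes all 9 of these libraries lay below all 3 crude_RNase libraries, and Col5a1 was the exception. The share of all tested genes with such a split was not computed. Taking 1 preparation at a time, all IP_RNase libraries lay below all crude_RNase libraries for 10 of the 10 matrix genes and 10.8% of tested genes. In IP_RNase_ProK this held for 10 of the 10 and 11.3% of tested genes, and in mitoplast_RNase for 9 of the 10 and 10.7%.

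Summed over the 10 genes, the share of all counts was 0.119% ± 0.0042 in mitoplast_RNase, 0.119% ± 0.0006 in IP_RNase_ProK, 0.115% ± 0.00375 in IP_RNase, against 0.151% ± 0.0206 in crude_RNase (SD, n = 3 each). With nuclear genes alone as the denominator, the shares were 0.123% ± 0.00336, 0.122% ± 0.000231 and 0.123% ± 0.00123 in the bead-derived groups in the same order, and 0.298% ± 0.00167 in crude_RNase. On either scale each bead-derived library lay below each crude_RNase library. The ratio to mitochondrial messenger RNA ran the other way. For every 1000 mitochondrial mRNA counts there were 68.9 ± 11.2 counts of the 10 matrix genes in mitoplast_RNase, 68.9 ± 11.5 in IP_RNase_ProK, 32 ± 13.2 in IP_RNase, against 5.97 ± 1.45 in crude_RNase (SD, n = 3 each). The IP_RNase libraries ranged from 19.79 to 45.98, all above the crude_RNase range of 4.857 to 7.604. These sums are descriptions, with no test.

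**Figure D4:**
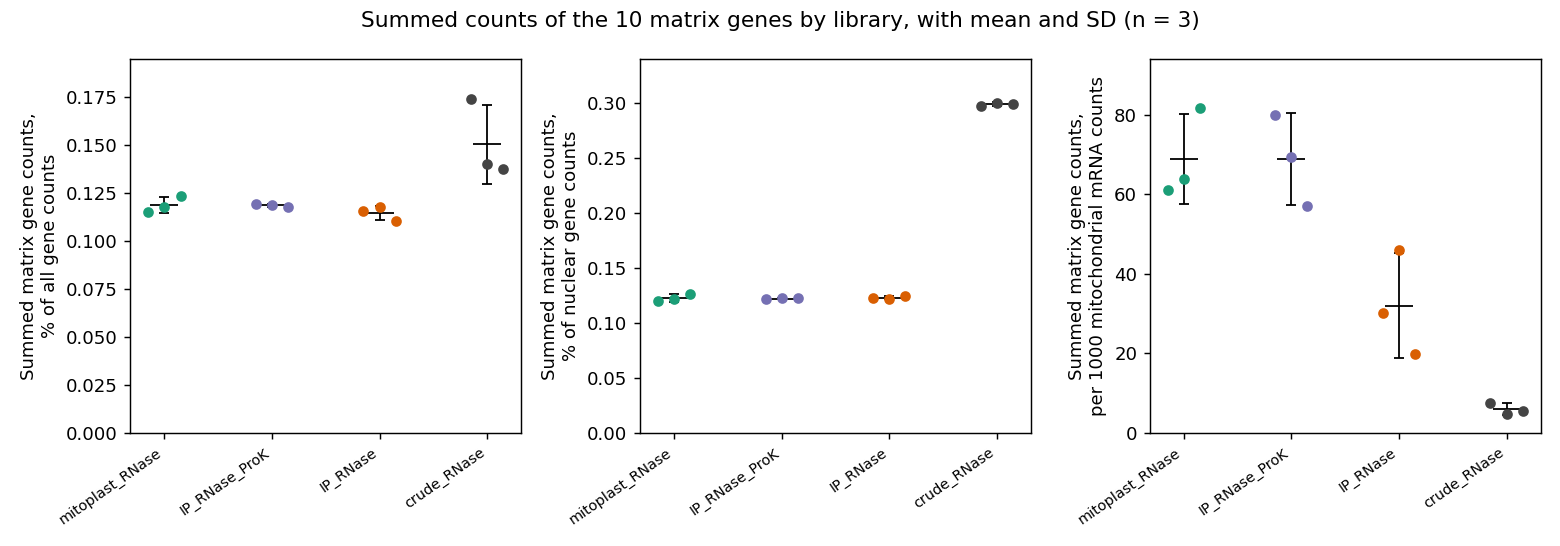
Summed counts of the 10 matrix genes in each library (points, with group mean and SD, n = 3) as a percentage of all gene counts, as a percentage of nuclear gene counts and per 1000 mitochondrial mRNA counts. Crude_RNase is highest on the first 2 axes, at means of 0.151% and 0.298%, and lowest on the third, at 5.97.

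The make-up of the matrix transcripts also differed. Col3a1 gave 5.7% ± 0.614 of the summed counts of the 10 genes in mitoplast_RNase, 5.31% ± 0.189 in IP_RNase_ProK, 6.55% ± 0.725 in IP_RNase, against 23.5% ± 0.961 in crude_RNase (SD, n = 3 each). Fn1 gave 13.1% ± 0.415, 13% ± 0.168 and 13.6% ± 0.671 in the bead-derived groups in that order, and 6.28% ± 0.183 in crude_RNase. Col1a1, Col1a2, Col3a1, Sparc and Dcn together, grouped after their values were seen, gave 32.2% ± 1.23, 31.1% ± 0.409 and 32.5% ± 0.676 in the bead-derived groups, and 67.4% ± 1.79 in crude_RNase. These shares do not depend on the scaling between libraries.

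Ratios of raw counts within a library compared chains that build 1 molecule or fibril, without any scaling. The ratio of Col1a1 to Col1a2 counts was 1.42, 1.41 and 1.41 in IP_RNase libraries, against 1.62, 1.43 and 1.49 in crude_RNase libraries, a difference of -0.10 on the log2 scale. The ratio of Col6a1 to Col6a2 was 0.987, 0.937 and 0.953 in IP_RNase libraries, against 0.934, 0.891 and 0.967 in crude_RNase libraries, with overlap (difference 0.04; two-sided exact permutation p = 0.4). The mean ratio of the paired collagen I chains was 1.07-fold lower in IP_RNase, and that of the collagen VI pair was 1.03-fold of its crude_RNase value. The other bead-derived groups did not share the lower collagen I ratio. It was 1.56, 1.75 and 1.84 in mitoplast_RNase libraries and 1.58, 1.63 and 1.41 in IP_RNase_ProK libraries, overlapping crude_RNase in both. The Col6a1 to Col6a2 ratio was 1.03, 0.942 and 1 in mitoplast_RNase and 0.818, 0.891 and 0.94 in IP_RNase_ProK, also overlapping crude_RNase. Ratios were tested for IP_RNase against crude_RNase alone, and the values of the other groups are descriptions.

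Ratios between collagen types moved more. The ratio of Col3a1 to Col1a1 was 0.633, 0.499 and 0.557 in IP_RNase libraries, against 1.17, 1.26 and 1.33 in crude_RNase libraries, a log2 difference of -1.16. The ratio of Col5a1 to Col1a1 was 1.54, 1.69 and 1.39 in IP_RNase libraries, against 0.486, 0.393 and 0.414 in crude_RNase libraries, a log2 difference of 1.84. Within collagen VI, the ratio of Col6a3 to Col6a1 was 2.02, 1.89 and 1.79 in IP_RNase libraries, against 1.35, 1.34 and 1.38 in crude_RNase libraries, a log2 difference of 0.48. The groups were separate for these 3 ratios and for Col1a1 to Col1a2, each with a two-sided exact permutation p of 0.1, the smallest that 3 libraries against 3 allow, and 0.125 adjusted over the 5 ratios. For the ratios between types and for Col6a3 to Col6a1, the other bead-derived libraries lay on the same side of crude_RNase. Col3a1 to Col1a1 was 0.464, 0.465 and 0.381 in mitoplast_RNase and 0.468, 0.442 and 0.446 in IP_RNase_ProK. Col5a1 to Col1a1 was 1.4, 1.41 and 1.49 in mitoplast_RNase and 1.56, 1.61 and 1.65 in IP_RNase_ProK. Col6a3 to Col6a1 was 1.55, 1.52 and 1.61 in mitoplast_RNase and 1.76, 1.62 and 1.72 in IP_RNase_ProK, all below the IP_RNase range.

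The other genes of the matrix were read from a list chosen with earlier results known. The counts of this list and of those that follow stand beside the share of all tested genes called lower than in crude_RNase, which was 4.54% in mitoplast_RNase, 5.04% in IP_RNase_ProK and 5.09% in IP_RNase, and called higher, which was 0.997%, 1.45% and 1.26%. These directions hold for TMM scaling. With counts divided by library totals alone, 45 of the 49 other matrix genes, 30 of 31 folding genes, 20 of 20 receptors, 18 of 19 fibroblast genes and 14 of 14 TGF-beta genes were called higher in each bead-derived preparation. Of the 49 other matrix genes, 17 were lower and 1 higher in IP_RNase than in crude_RNase by the edgeR test, with a median log2 fold change of -0.17, against 0.01 for all tested genes. Dpt, which encodes dermatopontin, a binder of decorin, was at -2.65 ± 0.105 (SE; edgeR adjusted p = 3.15e-28). Mgp, matrix Gla protein, an inhibitor of calcification, was at -1.21 ± 0.155 (SE). Bgn, the decorin relative biglycan, was at -0.86 ± 0.133, and Col14a1, a fibril-associated collagen, at -0.52 ± 0.0789 (SE). The 1 higher gene was Tnc, tenascin C, a glycoprotein of tendon and of healing tissue, at 0.26 ± 0.0766 (SE; edgeR adjusted p = 0.0277), named after its value was seen. In IP_RNase_ProK 18 of the 49 were lower than in crude_RNase and none was higher, and in mitoplast_RNase 17 were lower and none was higher. Tnc was the single gene of this list that passed between bead-derived preparations, lower in IP_RNase_ProK than in IP_RNase by a log2 fold change of -0.33 ± 0.0752 (SE; edgeR adjusted p = 0.0482), and this call was lost with scaling by library totals.

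Of 31 genes for collagen folding, crosslinking and cleavage, 4 were lower and none higher in IP_RNase than in crude_RNase, with a median of -0.10. They were Ppib, cyclophilin B, which isomerises prolines in procollagen (log2 fold change -1.26 ± 0.153, SE), Serpinh1, the collagen chaperone HSP47 (-0.65 ± 0.11), P4hb, the beta subunit of prolyl 4-hydroxylase (-0.60 ± 0.0943), and Pcolce, an enhancer of procollagen cleavage (-0.53 ± 0.118). The other 27 did not pass. Against crude_RNase 4 were lower in IP_RNase_ProK and 5 in mitoplast_RNase, and none was higher in either.

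Of 20 matrix receptors, 4 were lower and none higher in IP_RNase than in crude_RNase, with a median of -0.05. They were Ddr2, a receptor tyrosine kinase for fibrillar collagen (-0.68 ± 0.088, SE), Itgb1, the beta chain shared by the collagen-binding integrins (-0.56 ± 0.101), Sdc4, a heparan sulfate syndecan (-0.65 ± 0.135), and Itgb5, an integrin beta chain (-0.45 ± 0.099). In IP_RNase_ProK 3 were lower and in mitoplast_RNase 2, with none higher. Of 14 ligands, receptors and transducers of TGF-beta, a growth factor that induces collagen transcription in fibroblasts, 3 were lower and none higher in IP_RNase. These were Tgfb3, a ligand (-0.49 ± 0.0989, SE), Ltbp4, a latent TGF-beta binding protein (-0.37 ± 0.0789), and Tgfbr2, the type II receptor (-0.28 ± 0.0896). In IP_RNase_ProK 3 of the 14 were lower and in mitoplast_RNase 2, with none higher. With DESeq2 these calls were 2 in IP_RNase, 0 in IP_RNase_ProK and 0 in mitoplast_RNase.

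Of 19 fibroblast genes outside the matrix, 4 were lower and none higher in IP_RNase than in crude_RNase, with a median of -0.05. DESeq2 called 2 of them lower. Vim, the intermediate filament protein vimentin, which many mesenchymal cells share, was at -3.14 ± 0.0936 (SE; edgeR adjusted p = 7.45e-34). Pdgfra, the PDGF receptor that marks muscle fibroblasts and their precursors, was at -0.31 ± 0.08 (SE; edgeR adjusted p = 0.00879). Pi16 and Cd34, surface markers of connective tissue fibroblasts, were both at -0.45 (edgeR adjusted p = 0.0125 and 0.0273). Thy1, another surface marker, was not among them and was higher than in crude_RNase by 0.40 ± 0.107 in IP_RNase_ProK and 0.38 ± 0.108 in mitoplast_RNase (SE; edgeR adjusted p = 0.0101 and 0.0214), where 2 genes of the list were lower. With DESeq2 no gene of the list was called higher in mitoplast_RNase, so Thy1 did not pass there, and 1 was in IP_RNase_ProK.

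**Figure D5:**
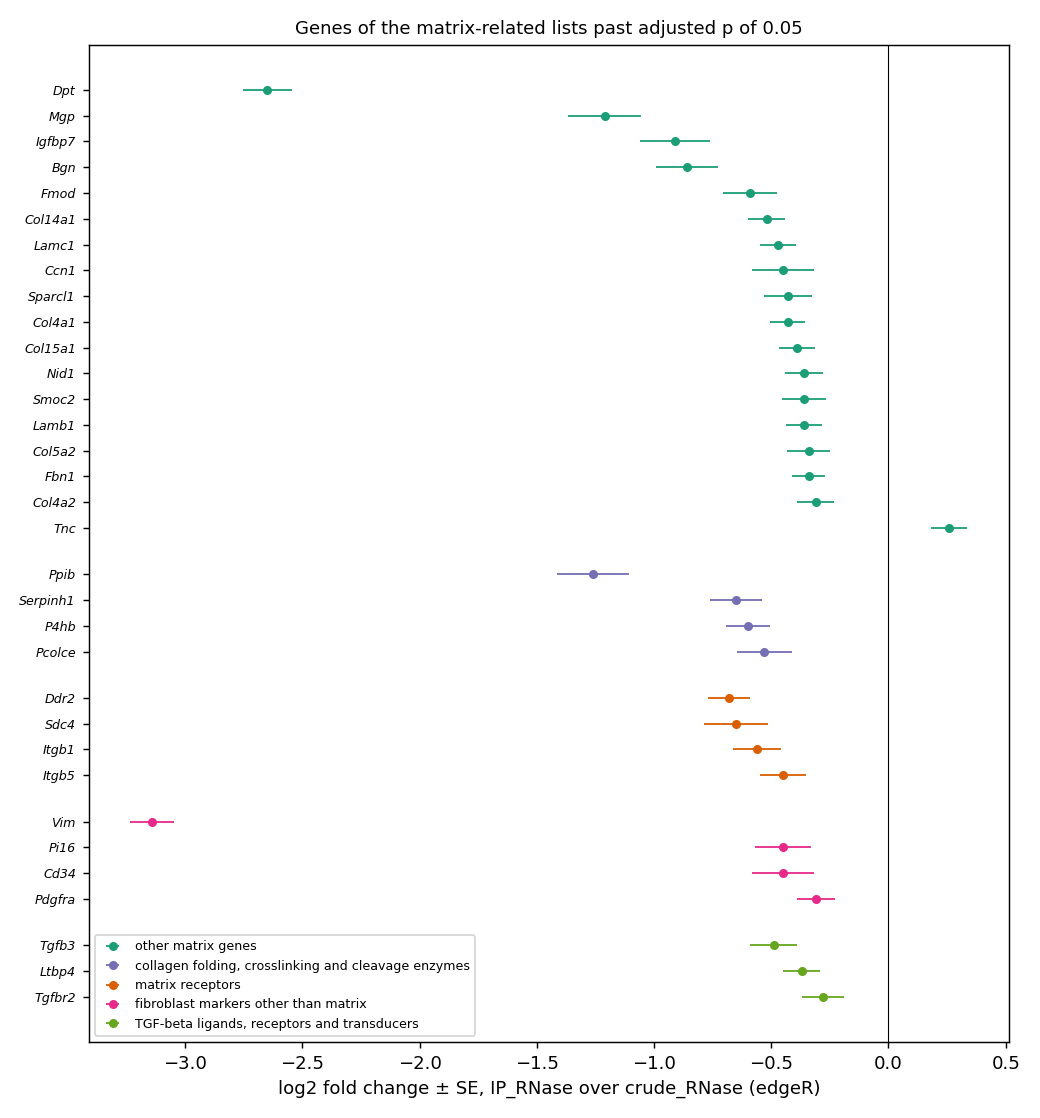
Log2 fold change of IP_RNase over crude_RNase with SE (horizontal axis) for the genes of 5 matrix-related lists (colours) that passed an edgeR adjusted p of 0.05. Dpt at -2.65 and Vim at -3.14 lie farthest to the left, and Tnc at 0.26 is the single gene above 0.

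Markers of cell types were read beside these values. The summed level of 7 fibroblast surface and lineage markers (Pdgfra, Thy1, Cd34, Pi16, Dpp4, Meox1 and Scara5) was 294 to 304 CPM in mitoplast_RNase, 291 to 300 in IP_RNase_ProK, 274 to 286 in IP_RNase and 319 to 347 in crude_RNase. In IP_RNase 3 of these 7 were lower than in crude_RNase, and in IP_RNase_ProK and mitoplast_RNase 1 was lower and 1 higher. The 9 muscle fibre markers tested were all lower in each bead-derived preparation, with sums of 506 to 659 CPM in mitoplast_RNase, 474 to 508 in IP_RNase_ProK, 502 to 606 in IP_RNase and 5020 to 6430 in crude_RNase. Transcripts of the fibres moved in the same direction as those of the matrix, and the part of either in the other was not tested. In IP_RNase against crude_RNase, none of 9 endothelial, 8 smooth muscle and pericyte, 7 Schwann cell and 6 satellite cell markers passed, while 3 of 9 macrophage and leukocyte, 3 of 6 adipocyte and 1 of 6 tenocyte markers were lower. In IP_RNase_ProK 3 macrophage and leukocyte, 2 adipocyte and 1 Schwann cell marker were lower, and in mitoplast_RNase the counts were 4, 2 and 1. The Schwann cell marker was Mbp, myelin basic protein, in both (edgeR adjusted p = 0.0244 and 0.0228). No tenocyte, endothelial, smooth muscle and pericyte or satellite cell marker passed in either, and no marker of these lists was higher. No marker of any list was at 0 in any group. The median olfactory receptor gene was not at 0 either, with 30 to 34 counts in crude_RNase and 40 to 49 in IP_RNase_ProK. Some markers lay near that level, such as Tnmd of the tenocyte list, with 22 to 43 counts in those groups. The part of such a level in the marker values was not tested.

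Genes outside the list were ranked by how closely their levels over the 12 libraries followed the mean of the 10 matrix genes, each gene centred on its own mean in log2 CPM. Of 18154 candidates the closest were Ahnak, Ckmt2, Pkm, Zc3h10, Hspa8, Mb, Rack1 and Tmem38a, at root mean square distances of 0.0698 to 0.109 in log2 CPM. The members themselves lay 0.283 (Col1a1) to 0.877 (Col3a1) from that mean. Ckmt2, a creatine kinase of muscle mitochondria, and Mb, myoglobin, are genes of muscle fibres, and the other nearest genes, Ahnak the closest among them, were not assigned to a cell type.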

How the data were processed

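Per the submitters' processing notes, reads were handled with FastQC 0.74, cutadapt 4.6, STAR 2.7.11a and HTSeq on mRatBN7.2. Not given in the sources used here are the annotation release, whether counting used strand and how multi-mapped reads were treated. The authors deposited raw read counts per gene, not normalised. Libraries were grouped by title: for crude mitochondria the source label says immunoprecipitation, but the titles and the design text say crude, and these were followed. Per the labels, RNA was treated with DNase I on the column and depleted of ribosomal RNA. The design text names the gastrocnemius, and the protocol the hindlimb muscles.

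The counts were tested with edgeR 4.0.16 (R 4.3.3): TMM scaling, filterByExpr with a minimum count of 10, 1 quasi-likelihood model of 12 libraries in 4 groups, and Benjamini-Hochberg adjustment over all 26483 tested genes with a threshold of 0.05. The SE of a log2 fold change is its size divided by the square root of F. CPM use effective library sizes. Ratios of counts were tested by exact permutation with SciPy 1.17.1. The alternatives were DESeq2 1.42.0, other scalings and filters, fits of the 2 groups alone, a replicate block and leaving out each library. The fit was also run on simulated counts with the same spread in every gene and group. The real libraries differ in spread by group, so that run cannot vouch for the model on them. Replicates differed by more than counting noise (chi-square per degree of freedom 1.25 to 13). Pairs of crude_RNase libraries differed most, at 4.7 to 13, and pairs of IP_RNase libraries were at 2.08 to 7.8. Pairs in IP_RNase_ProK and mitoplast_RNase were at 1.25 to 1.93. The 10 genes and the gene lists were chosen with earlier results of these data known. All members are named, with up to 4 genes of each list by smallest p in a comparison and the 8 genes nearest the members' mean among those with at least 50 counts per library on average. Promoter sequences are RefSeq's for GRCr8, which is not the build of the counts, so no other coordinates are given.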

Additional observations from a re-analysis of the deposited data

How the results depend on the processing

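Col1a1, Col1a2, Col3a1, Sparc and Dcn were called lower than in crude_RNase in all 3 bead-derived preparations under every alternative run. Scaling by library totals alone moved the median of all tested genes to 1.03 (IP_RNase), 1.09 (IP_RNase_ProK) and 1.08 (mitoplast_RNase) over crude_RNase, and the split of all genes to 189 lower and 25094 higher, 185 and 25235, and 179 and 25236. Of the 10 members, 5 were then lower and 5 higher in each comparison. The log2 fold changes that changed sign were Col5a1 0.74, Col6a1 0.38, Col6a2 0.34, Col6a3 0.87 and Fn1 0.72 in IP_RNase, 0.86, 0.52, 0.60, 0.84 and 0.70 in IP_RNase_ProK, and 0.85, 0.58, 0.49, 0.78 and 0.71 in mitoplast_RNase, in the same gene order. Under that scaling the lists had 45 other matrix genes, 30 folding genes, 20 receptors, 18 fibroblast genes and 14 TGF-beta genes called higher in each comparison. Those called lower were 1 other matrix gene in IP_RNase and 2 in the others, 1 fibroblast gene in each, and 0 in the remaining lists, and the Tnc call between IP_RNase_ProK and IP_RNase was gone (0).

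Scaling on olfactory receptor genes moved that median to -0.21, -0.12 and -0.11, called 4535 genes in IP_RNase (4478 lower) and called Col6a3 there too (log2 fold change -0.37). With DESeq2, 1128, 1112 and 1007 genes were called against crude_RNase, fibroblast genes called lower in IP_RNase were 2, the fibroblast gene called higher in mitoplast_RNase, Thy1, was lost (0), and TGF-beta genes called lower were 0 in IP_RNase_ProK and 0 in mitoplast_RNase. Fits of the 2 groups alone lost Col5a1 and Fn1 in IP_RNase (adjusted p = 0.136 and 0.0521) and Col6a3 in IP_RNase_ProK and mitoplast_RNase (0.129 and 0.0613), and called 143, 115 and 11 genes between bead-derived preparations (IP_RNase_ProK over IP_RNase, mitoplast_RNase over IP_RNase, mitoplast_RNase over IP_RNase_ProK), against 37, 41 and 0. In these cases the cause was not tested.

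Leaving out 1 library at a time gave 8 to 9 members lower in IP_RNase, 8 to 10 in IP_RNase_ProK and 8 to 10 in mitoplast_RNase. With nuclear genes as the denominator, the members' share differed from crude_RNase by -0.176 percentage points in each bead-derived group, by -0.000743 between IP_RNase_ProK and IP_RNase and by -4.91e-05 between mitoplast_RNase and IP_RNase. Same-numbered libraries did not deviate together (0 of 18 correlations over 0.1, range -0.102 to 0.0665). With the replicate number as a block, 9 members were lower in each comparison with crude_RNase and 0 passed between bead-derived preparations, and 1638 genes were called in IP_RNase against crude_RNase. Dcn, with 61 to 112 counts per bead-derived library, had the largest SE of the members in every comparison, and the part of depth in this was not tested.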
